A study of Mus musculus with 72 samples.

Results

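Omp and 7 genes near it on mouse chromosome 7 were followed through 72 RNA-seq libraries of olfactory epithelium. The 8 genes are Omp, its neighbours Capn5 and Myo7a, and the Trim12a, Trim12c, Trim5, Trim34a and Trim34b cluster. They were chosen by their difference between the mouse lines in earlier results of these data, and each was found once by symbol among 54532 gene IDs and matched to its counts by Ensembl ID. The values that chose them are those of mice without doxycycline (DOX), so differences between lines there are given as a description, with no test. Comparisons with against without DOX, and of ages without DOX, use those libraries too and are not independent of the choice.

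The libraries fall into 25 groups, of which 22 hold 3 libraries and 3 hold 2. The Fzd1-lacZ mice, a knockout of the Wnt receptor gene Fzd1, gave 15 libraries, and their labels name no tTA or tetO allele. The Omp-IRES-tTA;tetO-Fzd1-IRES-tdTomato mice, called ectopicFzd1 here, gave 15 libraries with DOX from P0 and 14 without it. The Omp-IRES-tTA mice, called control here, gave 15 libraries with DOX from P0 and 13 without it. Ages without DOX were P0, P3, P7, P10 and P14, and ages with DOX were P1, P3, P7, P10 and P14 (postnatal days). The ectopicFzd1 mice and the control mice thus both carry the modified Omp locus, and no group here is an unmodified wild type. The titles use the words homo, het, ctrl and wt, but none of the labels states how many copies of Omp-IRES-tTA an animal carried, and none gives a strain. Nothing in the labels says that the libraries of a group came from separate litters, so p-values measure only the spread between these libraries, which may be technical in part.

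Omp encodes olfactory marker protein, a small cytoplasmic protein abundant in mature olfactory sensory neurons and widely used to mark them. In the Omp-IRES-tTA allele an internal ribosome entry site joins tTA, a transcription factor that DOX switches off, to the Omp transcript. Without DOX, tTA drives genes placed behind tetO, here Fzd1 and tdTomato, in the cells that use the Omp promoter. Capn5 encodes a calpain, a calcium-dependent cysteine protease. Myo7a encodes an unconventional myosin of sensory hair cells, where it works with the other Usher syndrome proteins. Genes of the TRIM family encode ring finger E3 ubiquitin ligases, and the human relative TRIM5 restricts retroviruses.

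In mm10, Omp lies at chr7:98143359-98145502 on the minus strand (ENSMUSG00000074006) as 1 exon inside an intron of Capn5, which spans chr7:98121559-98178274 on the same strand (ENSMUSG00000035547). The genes share 0 exon bases, but a Capn5 exon (chr7:98145516-98145756) ends 14 bases upstream of Omp. Reads of unspliced Capn5 RNA over the Omp exon cannot be told apart from Omp reads. Myo7a (chr7:98051060-98119524, minus strand, ENSMUSG00000030761) begins 2034 bases beyond the 3′ end of Capn5. The 5 Trim genes lie 6.10 Mb away from the start of Omp, within 108.9 kb. They are Trim34a (chr7:104244457-104262234, plus strand, ENSMUSG00000056144), Trim5 (chr7:104263386-104288094, minus strand, ENSMUSG00000060441), Trim12a (chr7:104299894-104315466, minus strand, ENSMUSG00000066258), Trim34b (chr7:104329471-104336909, plus strand, ENSMUSG00000090215) and Trim12c (chr7:104338754-104353362, minus strand, ENSMUSG00000057143). The setting used for strand in the counting is not given in the sources used here. The antisense genes overlapping members held few reads over all 72 libraries, at 36 for Gm15133 over Trim12a, 4 for Gm47248 over Trim34a and 133 for Gm16938 over Capn5.

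Trim12a, Trim5 and Trim12c are near copies of one another, and so are Trim34a and Trim34b, which matters for every count below. Their first 60 coding bases (GENCODE M21 transcripts) are shown to let the pairs be compared, with capitals marking bases that differ from Trim12a in Trim5 and Trim12c, or from Trim34a in Trim34b.
Trim12a: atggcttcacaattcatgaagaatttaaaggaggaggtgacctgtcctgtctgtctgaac
Trim5: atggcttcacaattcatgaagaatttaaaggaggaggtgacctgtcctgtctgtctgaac
Trim12c: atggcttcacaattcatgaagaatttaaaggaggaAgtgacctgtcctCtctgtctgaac
Trim34a: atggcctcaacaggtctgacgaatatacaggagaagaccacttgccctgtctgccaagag
Trim34b: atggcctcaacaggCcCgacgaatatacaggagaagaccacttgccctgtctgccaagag
In this stretch Trim5 equals Trim12a, and Trim12c and Trim34b each differ at 2 bases. Over the aligned coding sequence, Trim12a shared 97.1% of bases with Trim5 and 96.4% with Trim12c, and Trim34a shared 98.2% with Trim34b. Between these sets the share was 63.4% to 65.2%. The share of a gene's 50-base words that also occurs in another Trim member was 7.78% for Trim12a, 29.5% for Trim5, 39.8% for Trim34a and 56.8% for Trim34b. Counts within each pair are therefore uncertain where reads could be assigned to either copy.

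Gene counts per library ran between 1314528 and 8788000. The Gm10800-type repeat genes took 0.0540% to 73.7% of gene counts, over 25% in 8 libraries, of which 5 were Fzd1-lacZ. All 15 mature neuron markers other than Omp were detected in every line. Fzd1 itself, in CPM (counts scaled to library size by TMM), was 3.48 to 20.3 in Fzd1-lacZ and 43.0 to 2122 in ectopicFzd1 without DOX, against 20.9 to 44.3 in control without DOX. With DOX it was 21.98 to 64.0 CPM in ectopicFzd1 and 3.45 to 54.3 CPM in control. The library labelled ectopicFzd1 P3 replicate 3 had Fzd1 at the control level. The library labelled control DOX P7 replicate 1 held the lowest Fzd1 of its line, at 3.45 CPM. That lay below every Fzd1-lacZ library, while replicates 2 and 3 of its group had 37.6 and 31.5 CPM. The 3 ectopicFzd1 DOX P3 libraries share 1 animal number in their titles, and ectopicFzd1 DOX P14 replicate 1 shares one with ectopicFzd1 DOX P10 replicate 3.

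Omp fell into separate high and low groups that followed neither genotype nor DOX alone. Mean Omp was at or above 157 CPM in 12 groups and at or below 56.5 CPM in 13. All 5 Fzd1-lacZ ages were high in CPM. In TPM, Fzd1-lacZ P10 replicates 1 and 3, both rich in repeat genes, had 31.3 and 53.7, against 487 in replicate 2. The tTA libraries at P0 had 38.3 to 82.3 TPM, and the highest ectopicFzd1 library with DOX had 14.98 TPM. Control was high at P0 and P14 without DOX and at P1, P7, P10 and P14 with DOX. The ectopicFzd1 mice were high at P0 without DOX and low in every other group. Per length, Omp had a median of 23.1 TPM over the 72 libraries (range 2.46 to 495), against 3.03 for Capn5, 2.72 for Trim12c, 1.75 for Myo7a and under 1 for the 4 other Trim genes. In the order of group means, neighbouring groups overlapped in their libraries except at 5 steps. These lay below Fzd1-lacZ P7, below control DOX P10, below control DOX P7, below control DOX P1 and below ectopicFzd1 P0.

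Without DOX at P0, Omp had 634, 515 and 616 CPM in Fzd1-lacZ and 143, 195 and 133 CPM in ectopicFzd1, against 287, 185 and 207 CPM in control. At P3 it had 960.3, 946 and 747 CPM in Fzd1-lacZ and 13.1, 12.4 and 28.1 CPM in ectopicFzd1, against 27.8 and 27.9 CPM in control. At P7 it had 1098, 991 and 1122 CPM in Fzd1-lacZ and 74.7, 17.1 and 13.8 CPM in ectopicFzd1, against 30.0 and 30.1 CPM in control. Every Fzd1-lacZ library at these ages lay above every library of both other lines, while ectopicFzd1 and control overlapped. At P10 Omp had 422, 2677 and 1246 CPM in Fzd1-lacZ and 20.6, 15.5 and 26.1 CPM in ectopicFzd1, against 46.9, 46.9 and 61.1 CPM in control. At P14 it had 1174, 3018 and 2475 CPM in Fzd1-lacZ and 28.1 and 31.3 CPM in ectopicFzd1, against 1329, 1384 and 1514 CPM in control. Control at P14 thus overlapped Fzd1-lacZ, and all ectopicFzd1 libraries at P10 and P14 were below control.

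The fitted log2 difference in Omp, Fzd1-lacZ minus control, was 1.38 (SE 0.34) at P0, 4.99 (SE 0.48) at P3, 5.15 (SE 0.49) at P7, 4.82 (SE 0.40) at P10 and 0.66 (SE 0.33) at P14. For ectopicFzd1 minus control it was -0.52 (SE 0.34) at P0, -0.73 (SE 0.42) at P3, 0.09 (SE 0.44) at P7, -1.34 (SE 0.38) at P10 and -5.57 (SE 0.50) at P14. Both share the control libraries and both helped choose the members. All 8 genes passed an adjusted p of 0.05 in Fzd1-lacZ minus control, where 2.85% of 22144 genes did, and 2 (Omp and Capn5) passed in ectopicFzd1 minus control, where 9.19% did. Nothing is read from these counts.

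With DOX, Omp was lower in ectopicFzd1 than in control at 4 of 5 ages. At P1 it had 27.9, 26.5 and 20.6 CPM in ectopicFzd1, against 228, 220.0 and 218 CPM in control. At P3 it had 27.3, 26.6 and 30.5 CPM in ectopicFzd1, against 36.2, 30.2 and 23.8 CPM in control. The groups overlapped at P3 and at no other age with DOX. At P7 Omp had 24.5, 29.4 and 35.1 CPM in ectopicFzd1, against 673, 412 and 554 CPM in control. At P10 it had 31.8, 30.8 and 41.9 CPM in ectopicFzd1, against 865, 887 and 890.1 CPM in control. At P14 it had 53.1, 63.6 and 52.7 CPM in ectopicFzd1, against 1373, 1444 and 1072 CPM in control. The highest ectopicFzd1 library with DOX lay below the lowest control library at each of these 3 ages.

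Averaged over the 5 ages with DOX, Omp fell by 3.32 on the log2 scale in ectopicFzd1 relative to control (SE 0.17, edgeR quasi-likelihood test, adjusted p = 3.46e-23). It was the only member of 8 to pass this test, in which 0.826% of all tested genes passed. That the lines differ in mean Omp was known from the mice without DOX, so a difference in this direction was not new. Its size by age was not the same, with 0.09 at P7, -1.34 at P10 and -5.57 at P14 without DOX. With DOX the difference by age was -3.16 (SE 0.37) at P1, -0.09 (SE 0.37) at P3, -4.20 (SE 0.39) at P7, -4.66 (SE 0.40) at P10 and -4.52 (SE 0.39) at P14. The difference with DOX varied among ages (edgeR F test, adjusted p = 2.57e-08). Without the 2 libraries whose Fzd1 goes against their labels the mean with DOX was -3.29 (adjusted p = 6.57e-23). An exact two-sided permutation test within ages gave a mean difference of -3.29 in log2 CPM (p = 5e-06, adjusted over 6 Omp tests p = 1.88e-05).

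**Figure D1:**
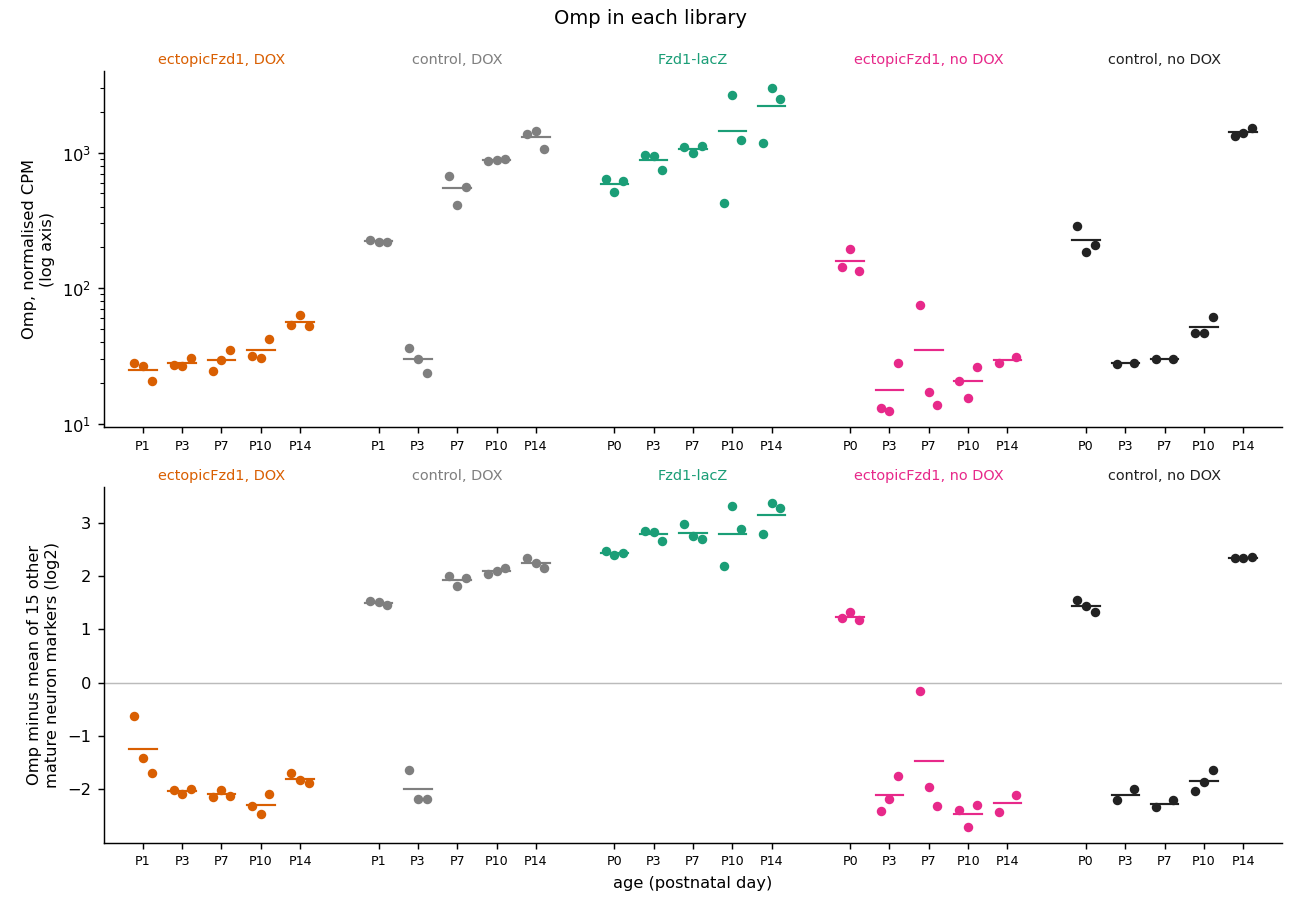
Omp in each of the 72 libraries by age, on a log axis in CPM (top) and as log2 difference from the mean of 15 other mature neuron markers (bottom); points are libraries, horizontal lines group means, and groups run ectopicFzd1 with DOX, control with DOX, Fzd1-lacZ, ectopicFzd1 without DOX and control without DOX. The 15 Fzd1-lacZ libraries sit between 422 and 3018 CPM, while the ectopicFzd1 libraries with DOX sit between 20.6 and 63.6 CPM.

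In bulk epithelium, fewer mature neurons and less Omp RNA per neuron cannot be told apart, so Omp was also set against 15 other genes of mature olfactory sensory neurons. In the ectopicFzd1 mice with DOX their summed level was 858 to 4500 CPM (median 2403), against 1479 to 6287 CPM (median 2921) in control with DOX, and 0 of the 15 passed edgeR's test, though 11 had an unadjusted p under 0.05 (median log2 difference -0.26, against 0.02 over all genes). Omp minus the mean of these markers, in log2 units with DOX, averaged -1.24 in ectopicFzd1 and 1.503 in control at P1, and -2.03 in ectopicFzd1 and -1.99 in control at P3. At P7 it averaged -2.09 in ectopicFzd1 and 1.92 in control, and at P14 -1.80 in ectopicFzd1 and 2.25 in control. The difference over all ages relative to the markers was -3.04 (exact permutation test, p = 6.25e-06, adjusted p = 1.88e-05). The Omp difference was thus of similar size with and without the marker level taken out.

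Without DOX the 15 markers differed between lines in another way than Omp did. Between Fzd1-lacZ and control 0 of 15 passed edgeR's test (5 at an unadjusted p under 0.05) and their median log2 difference was 0.05. Between ectopicFzd1 and control 14 of 15 were lower and the median was -0.77. Relative to the markers, Omp in Fzd1-lacZ averaged 2.43, 2.78, 2.81, 2.80 and 3.14 log2 units from P0 to P14. In ectopicFzd1 it averaged 1.24, -2.10, -1.47, -2.46 and -2.26, and in control 1.44, -2.10, -2.26, -1.84 and 2.35 at the same ages. The Fzd1-lacZ means stayed within 1 log2 unit across ages, while both tTA lines held means on either side of 0. Single Fzd1-lacZ libraries ran from 2.20 at P10 to 3.37 at P14.

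DOX in control mice went with higher Omp at P7 and P10 only. The log2 difference, control with DOX minus control without, was 0.10 (SE 0.41) at P3, 4.18 (SE 0.47) at P7, 4.09 (SE 0.39) at P10 and -0.12 (SE 0.33) at P14. Averaged over these ages it was 2.07 (SE 0.20, edgeR, adjusted p = 5.3e-11), and Omp was the only member of 8 to pass, where 0.867% of genes passed. The control libraries without DOX, whose Omp was low at P3, P7 and P10, also served in the line difference that chose Omp, so this is no independent test. Relative to the 15 markers the difference was 2.03 (exact two-sided permutation test within ages, p = 0.00278, adjusted p = 0.00416). In this comparison edgeR gave 0 of the 15 markers after adjustment and 0 at an unadjusted p under 0.05, and their median log2 difference was -0.03.

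DOX in ectopicFzd1 mice, with Fzd1 at 21.98 to 64.0 CPM, did not bring Omp to the high level. The log2 difference, ectopicFzd1 with DOX minus without, was 0.74, -0.11, 0.78 and 0.93 in order of age from P3, with a mean of 0.59 (SE 0.20, edgeR, adjusted p = 0.0545). It passed under 7 of 8 other settings, at 0.58 to 0.97. In the same comparison 12 of the 15 other mature neuron markers rose, with a median log2 difference of 0.68. Relative to those markers Omp differed by 0.02 (exact permutation test, p = 0.952, adjusted p = 0.952). Without ectopicFzd1 P7 replicate 1, one of the libraries rich in repeat genes, the edgeR difference was 0.85 (adjusted p = 0.000713).

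Between birth and P14 Omp moved in opposite directions in different lines. Without DOX these ages also differed in the series of animal numbers described below. In Fzd1-lacZ it averaged 2222 ± 947 CPM at P14 and 589 ± 64.0 CPM at P0 (SD, n = 3 each), and it rose by 1.92 log2 units (SE 0.34, edgeR, adjusted p = 4.39e-05). In ectopicFzd1 it averaged 29.7 ± 2.20 CPM at P14 (n = 2) and 157 ± 33.3 CPM at P0 (n = 3), and it fell by 2.40 (SE 0.43, adjusted p = 2.48e-05). In control it averaged 1409 ± 95.3 CPM at P14 and 226 ± 54.1 CPM at P0 (n = 3 each), and it rose by 2.64 (SE 0.35, adjusted p = 1.78e-08). At the ages between, control Omp was below both, so the course was not monotonic. With DOX, Omp at P14 relative to P1 rose by 1.19 in ectopicFzd1 (SE 0.37, adjusted p = 0.00836) and by 2.54 in control (SE 0.35, adjusted p = 3.24e-08). On the log2(TPM + 1) scale, tested with limma, the ectopicFzd1 rise with DOX was 0.05 (adjusted p = 0.92) and the Fzd1-lacZ rise was 1.016 (adjusted p = 0.0564).

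The titles carry animal numbers whose leading digits, called the ID series here, partly coincide with the groups. What a series stands for is not in the labels. At P1 with DOX both lines came from the same series, where Omp had 20.6 to 27.9 CPM in ectopicFzd1 and 218 to 228 CPM in control. The separation at that age was thus present within 1 series. At P3, P7, P10 and P14 with DOX the lines shared no series, so at P7, P10 and P14, where Omp separated them, line and series cannot be told apart. At P14 control with and without DOX came from that series too, and there Omp overlapped at 1072 to 1444 CPM with DOX and 1329 to 1514 CPM without. At P7 and at P10 control with DOX came from other series than control without DOX, so DOX and series cannot be told apart at the ages where Omp differed. Fzd1-lacZ and control shared no series at P0, P3, P7 and P10, so line and series cannot be told apart there for any member. At P14 these lines came from the same series. There Omp overlapped, at 1174 to 3018 CPM in Fzd1-lacZ, as did Trim12c, and the other members did not overlap. Fzd1-lacZ and ectopicFzd1 shared no series at any age. At P14 without DOX, ectopicFzd1 and control shared no series either. Line and series thus cannot be told apart there for any member, including the Omp difference of -5.57. Without DOX, over P0 to P10 and with the series as a covariate, the Omp difference between ectopicFzd1 and control was -0.28, against -0.62 without the covariate, and it no longer passed an adjusted p of 0.05. Without DOX, P0 and P14 came from different series in every line. Age and series thus cannot be told apart in the P14 minus P0 differences of any member. In control without DOX, the ages between shared no series with P0 or P14 either. With DOX, P1 and P14 came from different series in ectopicFzd1 and from the same series in control. The part that the ID series played in the levels of Omp and the other members was not tested further.

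Capn5, the gene that encloses Omp, was lower in Fzd1-lacZ than in control, where Omp was higher. At P0 Capn5 had 19.6, 21.9 and 17.4 CPM in Fzd1-lacZ and 37.4, 29.8 and 34.996 CPM in ectopicFzd1, against 37.997, 28.5 and 32.5 CPM in control. At P10 it had 11.6, 9.09 and 11.7 CPM in Fzd1-lacZ and 17.1, 15.3 and 21.3 CPM in ectopicFzd1, against 29.5, 35.8 and 39.4 CPM in control. Capn5 there rested on 8 counts in each of Fzd1-lacZ replicates 1 and 3, libraries rich in repeat genes, and on 67 in replicate 2. At P14 it had 8.27, 15.5 and 15.02 CPM in Fzd1-lacZ and 21.2 and 21.0 CPM in ectopicFzd1, against 23.6, 22.3 and 22.2 CPM in control. In CPM every Fzd1-lacZ library lay below every control library at P0, P3, P10 and P14, and the lines overlapped at P7. In TPM the lines overlapped at P0 as well, with 3.15, 3.76 and 3.46 in Fzd1-lacZ against 5.6, 3.57 and 5.04 in control. The log2 difference, Fzd1-lacZ minus control, was -0.74, -0.62, -0.75, -1.82 and -0.73 in order of age, with a mean of -0.93 (SE 0.09).

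With DOX, Capn5 in ectopicFzd1 was above control at P1 and P10 and below it at P3, in CPM. At P1 it had 38.4, 31.5 and 33.1 CPM in ectopicFzd1, against 19.6, 20.8 and 21.7 CPM in control. At P3 it had 27.5, 26.3 and 28.6 CPM in ectopicFzd1, against 35.9, 39.3 and 33.4 CPM in control. At P10 it had 29.1, 32.7 and 31.8 CPM in ectopicFzd1, against 19.6, 21.2 and 23.8 CPM in control. In each of these 3 pairs the libraries did not overlap in CPM. In TPM they were apart at P1 but overlapped at P3 and P10. At P3 Capn5 had 6.25, 4.98 and 4.32 TPM in ectopicFzd1, against 7.12, 5.81 and 6.74 TPM in control. At P10 it had 2.0, 3.65 and 2.99 TPM in ectopicFzd1, against 1.93, 2.09 and 2.85 TPM in control. The log2 difference was 0.72 (SE 0.17) at P1, -0.39 (SE 0.17) at P3, -0.02 (SE 0.17) at P7, 0.54 (SE 0.18) at P10 and 0.38 (SE 0.18) at P14. It varied among ages (edgeR F test, adjusted p = 0.00505), a test that 9.6% of all genes and 3 of the 8 members passed, and the mean of 0.25 (SE 0.08) did not pass (adjusted p = 0.134).

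DOX in ectopicFzd1 mice went with higher Capn5. The log2 difference with DOX minus without was 0.34, 0.72, 0.84 and 0.66 in order of age from P3, and the mean of 0.64 (SE 0.09) passed the test (edgeR, adjusted p = 1.29e-06). Capn5 was the only member of 8 to pass, where 7.5% of genes did. In control the same comparison gave 0.04 (SE 0.09, adjusted p = 0.898). The 13 other calpain genes held 0 that passed in any of these comparisons, or between lines without DOX. At an unadjusted p under 0.05, edgeR gave 2 of them for DOX in ectopicFzd1 and 0 for DOX in control.

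**Figure D2:**
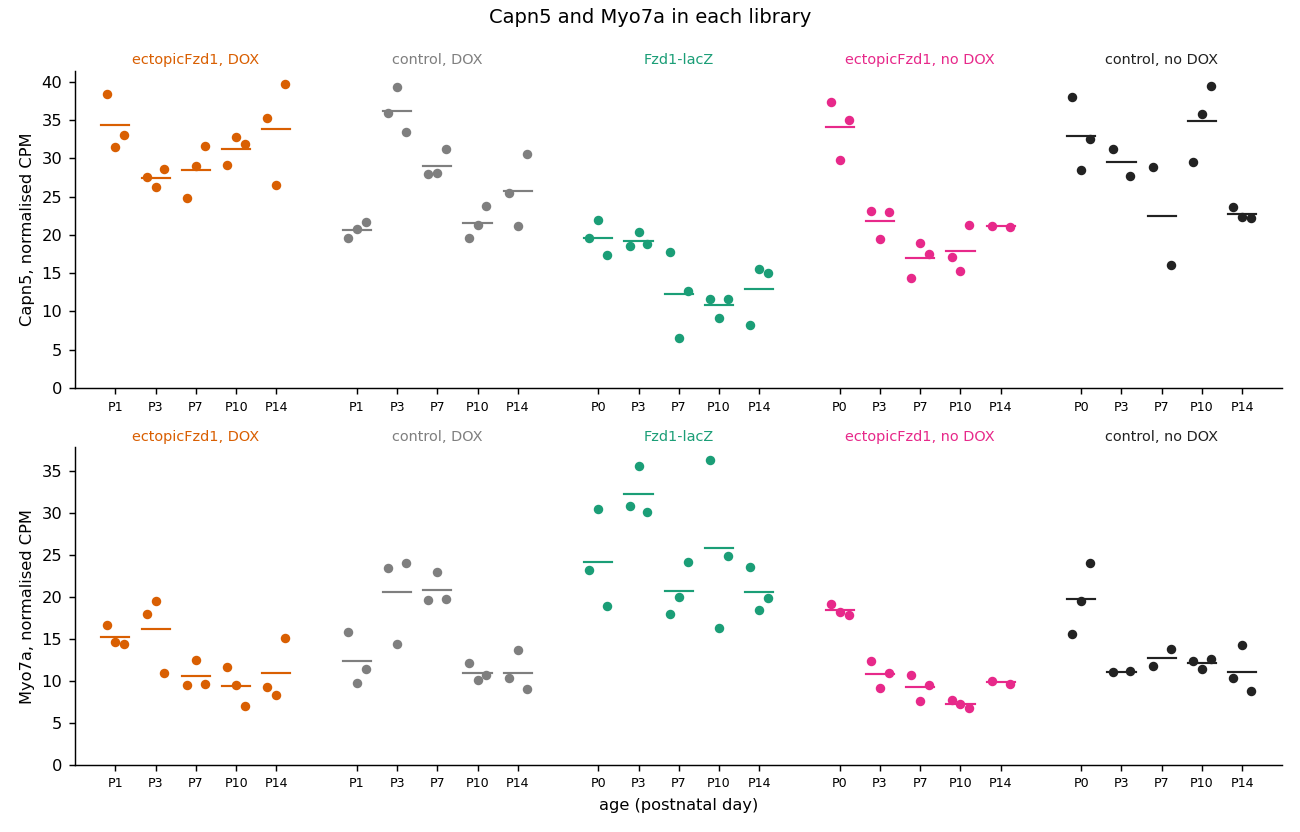
Capn5 (top) and Myo7a (bottom) in CPM in each of the 72 libraries by age; points are libraries, horizontal lines group means, and groups run ectopicFzd1 with DOX, control with DOX, Fzd1-lacZ, ectopicFzd1 without DOX and control without DOX. Capn5 in Fzd1-lacZ reaches at most 21.9 CPM, and Myo7a in Fzd1-lacZ reaches 36.3 CPM, against at most 24.0 CPM in the control libraries. That highest Myo7a value, P10 replicate 1, rests on 25 counts in a library rich in repeat genes and reads 1.04 TPM. Fzd1-lacZ P3 replicate 2, with 265 counts, reads 35.6 CPM.

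Myo7a, downstream of Capn5, was higher in CPM in Fzd1-lacZ than in both other lines from P3 on. At P0 it had 23.1, 30.4 and 18.8 CPM in Fzd1-lacZ and 19.1, 18.2 and 17.8 CPM in ectopicFzd1, against 15.5, 19.5 and 24.0 CPM in control. At P3 it had 30.8, 35.6 and 30.0 CPM in Fzd1-lacZ and 12.3, 9.14 and 10.9 CPM in ectopicFzd1, against 11.02 and 11.1 CPM in control. At P14 it had 23.5, 18.5 and 19.9 CPM in Fzd1-lacZ and 9.93 and 9.64 CPM in ectopicFzd1, against 10.3, 14.2 and 8.73 CPM in control. The lines overlapped at P0, and at P3, P7, P10 and P14 all Fzd1-lacZ libraries lay above all others without DOX in CPM. In TPM, Fzd1-lacZ and control overlapped at P7 and P10. At P7 Myo7a had 1.63, 1.77 and 1.83 TPM in Fzd1-lacZ, against 1.68 and 1.06 TPM in control. At P10 it had 1.04, 2.1 and 1.37 TPM in Fzd1-lacZ, against 1.24, 1.22 and 0.7 TPM in control. Fzd1-lacZ P10 replicates 1 and 3, libraries rich in repeat genes, held 25 and 17 counts. The log2 difference, Fzd1-lacZ minus control, was 0.31, 1.54, 0.69, 0.84 and 0.90 in order of age, with a mean of 0.85 (SE 0.11).

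With DOX, Myo7a separated the lines at P7. It had 9.45, 12.4 and 9.64 CPM in ectopicFzd1 there, against 19.6, 22.9 and 19.7 CPM in control. The log2 difference was -0.97 (SE 0.21) at P7, against 0.28 (SE 0.21) at P1, -0.37 (SE 0.21) at P3, -0.25 (SE 0.25) at P10 and -0.08 (SE 0.25) at P14. The difference varied among ages (edgeR F test, adjusted p = 0.0384), while the mean of -0.28 (SE 0.10) did not pass (adjusted p = 0.229). Of 8 other Usher network genes tested, 0 passed between Fzd1-lacZ and control, 0 between the lines with DOX and 0 in control with DOX against without. At an unadjusted p under 0.05, edgeR gave 1 of them between the lines with DOX and 0 in the other comparisons just named. Cdh23, a cadherin of hair cell tip links, was the 1 gene of that list that passed in the other comparisons of lines or of DOX. It was lower in ectopicFzd1 than in control without DOX (log2 difference -0.93) and rose in ectopicFzd1 with DOX relative to without (0.80, edgeR, adjusted p = 0.000473).

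By counts, Trim12a was either clearly present or at 0 to 1 count per library. The TPM values split less cleanly. Fzd1-lacZ P10 replicate 3, with 6 counts, had 0.22 TPM, and all other Fzd1-lacZ libraries had 0.92 TPM or more. With 0 counts, ectopicFzd1 P3 replicate 1 had 0.51 TPM and ectopicFzd1 DOX P3 replicate 2 had 0.35 TPM. With 1 count each, control P14 replicates 1 and 3 had 0.43 and 0.34 TPM. In Fzd1-lacZ Trim12a had 44, 40 and 16 counts at P0, 66, 56 and 76 at P3, 72, 21 and 38 at P7, 9, 31 and 6 at P10 and 26, 77 and 38 at P14. In ectopicFzd1 without DOX it had 82, 38 and 83 counts at P0 and 0 in all 11 later libraries. In control without DOX it had 29, 35 and 90 counts at P0, 0 in all libraries at P3, P7 and P10, and 1, 1 and 1 at P14. The 3 lines overlapped at P0. At P3, P7 and P10 Fzd1-lacZ lay above both other lines, which were both at 0, and at P14 Fzd1-lacZ lay above both again. With DOX, ectopicFzd1 had at most 1 count in any of 15 libraries. Control with DOX had 29, 28 and 31 counts at P7 and at most 1 count in the other 12 libraries.

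Ratios of summed counts, scaled by TMM library size, put a size on this, with exact 95% intervals that cover counting error only. Fzd1-lacZ over control gave 0.975 (0.750 to 1.26) at P0, and ectopicFzd1 over control gave 1.08 (0.873 to 1.34) at P0. Where control held 0, against a floor of 3 counts over the group, Fzd1-lacZ was at least 32.5-fold higher at P3, 27.6-fold at P7 and 15.1-fold at P10. At P14, where control held 1 count in each library, the ratio was 34.4 (11.5 to 169). With DOX at P7, ectopicFzd1 over control gave 0.0141 (0.000352 to 0.0804). In control at P7, Trim12a was at least 11.3-fold higher with DOX than without. Groups with more than 1 count of Trim12a in any library were thus all Fzd1-lacZ groups, both tTA lines at P0 and control with DOX at P7.

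Between P14 and P0, ages that also differed in ID series, Trim12a fell in both tTA lines. In control P14 over P0 gave 0.0339 (0.00691 to 0.101), and in ectopicFzd1 P14 was at least 18.5-fold lower. In Fzd1-lacZ the same ratio was 1.195 (0.918 to 1.56). In edgeR, P14 minus P0 passed for 2 members in Fzd1-lacZ (Omp and Capn5), where 22.5% of genes passed. It passed for 6 in ectopicFzd1 (all but Trim12c and Trim5), where 32% passed, and for 5 in control (Omp, Capn5, Myo7a, Trim12a and Trim34a), where 45.7% passed. With DOX, P14 minus P1 passed for Omp alone in ectopicFzd1, where 34.4% of genes passed, and for Omp alone in control, where 37.8% passed. Capn5 and Myo7a in ectopicFzd1 rest on both P14 libraries: without either one their adjusted p lay between 0.0541 and 0.0692. Trim34b in ectopicFzd1 (1.93, adjusted p = 0.0411) did not pass without either P14 library (0.268 without replicate 1, 0.0767 without replicate 2), nor without P0 replicate 1 (0.0893) or P0 replicate 3 (0.152). Trim34a there did not pass without P14 replicate 2 (adjusted p = 0.164), and Omp and Trim12a passed without either P14 library. Capn5 no longer passed in control without control P0 replicate 1 (adjusted p = 0.0696), nor in Fzd1-lacZ without the libraries rich in repeat genes (adjusted p = 0.143).

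Trim5, the near copy of Trim12a, was scarce and followed it. It had 4 to 16 counts in each of the 15 Fzd1-lacZ libraries. It had 21, 7 and 12 counts in ectopicFzd1 at P0, against 1, 3 and 10 in control at P0. In control with DOX at P7 it had 3, 5 and 7 counts, and ectopicFzd1 with DOX at P7 had 0, 2 and 1. All other tTA libraries held 4 counts or fewer. Fzd1-lacZ over control gave 2.79 (1.40 to 5.78) at P0, 3.57 (1.25 to 13.96) at P3 and at least 5.27-fold at P7. At P10 replicate 3 of Fzd1-lacZ read 16.1 CPM from 11 counts, a library in which the repeat genes took over 25%.

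**Figure D3:**
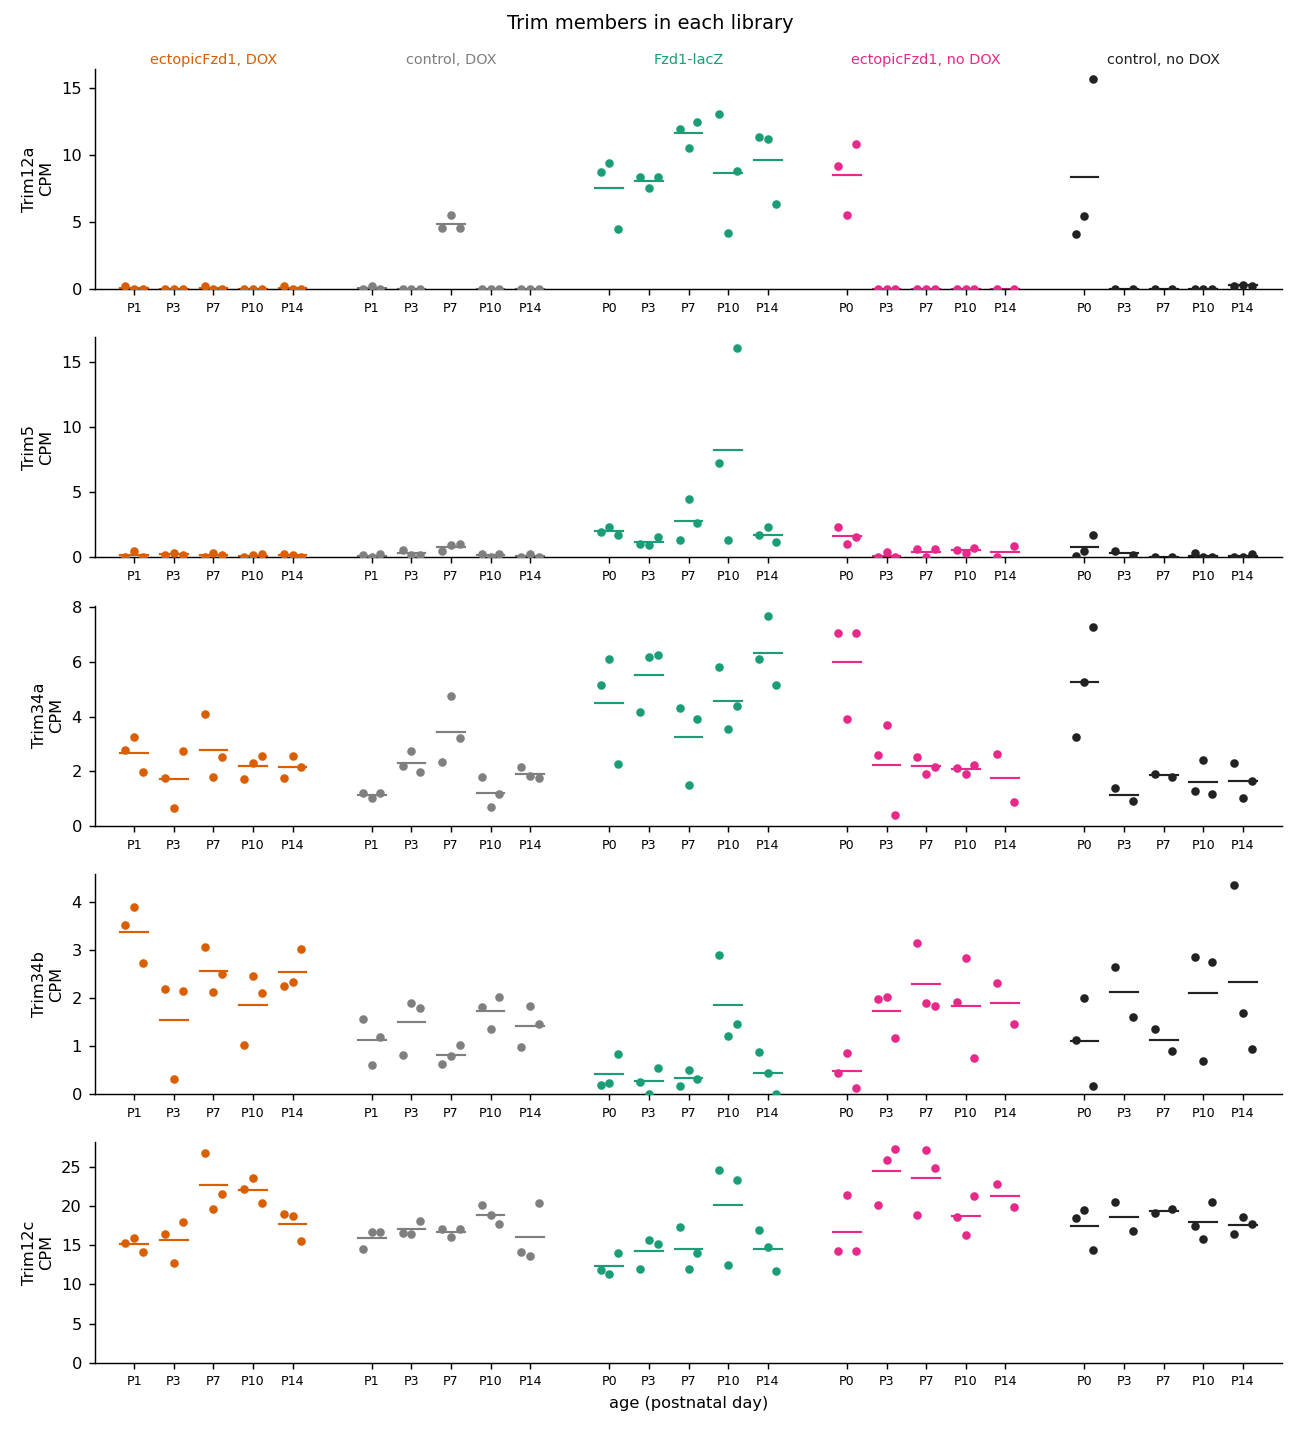
The 5 Trim genes in each of the 72 libraries by age, in CPM, with 1 panel and axis per gene; points are libraries, horizontal lines group means, and groups run ectopicFzd1 with DOX, control with DOX, Fzd1-lacZ, ectopicFzd1 without DOX and control without DOX. Trim12a reads 4.21 to 13.1 CPM in Fzd1-lacZ and 0 in most tTA libraries, while Trim12c stays between 11.3 and 27.4 CPM in all.

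Trim34a was higher in Fzd1-lacZ, at 1.497 to 7.70 CPM over its 15 libraries. At P14 it had 6.10, 7.70 and 5.17 CPM in Fzd1-lacZ and 2.65 and 0.876 CPM in ectopicFzd1, against 2.31, 1.01 and 1.65 CPM in control. At P0 it had 5.14, 6.12 and 2.25 CPM in Fzd1-lacZ and 7.05, 3.90 and 7.05 CPM in ectopicFzd1, against 3.25, 5.26 and 7.29 CPM in control. In CPM the lines overlapped at P0 and P7, and Fzd1-lacZ lay above control at P3, P10 and P14. At P10 Trim34a rested on 4 and 3 counts in Fzd1-lacZ replicates 1 and 3, libraries rich in repeat genes, and on 26 in replicate 2. In TPM these 3 replicates had 0.33, 0.89 and 0.27 in order, against 0.87, 0.48 and 0.61 in ectopicFzd1 at P10. Trim34a fell between P0 and P14 by 1.79 log2 units in ectopicFzd1 (SE 0.49, edgeR, adjusted p = 0.00444), or by 1.18 without ectopicFzd1 P14 replicate 2 (adjusted p = 0.164), and by 1.61 in control (SE 0.42, adjusted p = 0.00158).

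Trim34b, its near copy, went the other way. At P14 it had 0.871, 0.436 and 0 CPM in Fzd1-lacZ and 2.32 and 1.46 CPM in ectopicFzd1, against 4.36, 1.69 and 0.943 CPM in control. Fzd1-lacZ lay below control at P3, P7 and P14. The mean log2 difference, Fzd1-lacZ minus control, was -1.86 (SE 0.35) for Trim34b and 1.23 (SE 0.21) for Trim34a. With DOX, Trim34b differed by 0.85 between ectopicFzd1 and control (SE 0.27, edgeR, adjusted p = 0.142). It is listed at 0 to 31 counts per library, so single values carry large counting error.

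Trim12c varied least among the Trim members. Its median was 14.1 CPM in Fzd1-lacZ, 18.7 CPM in ectopicFzd1 with DOX and 16.7 CPM in control with DOX. Without DOX its median was 20.7 CPM in ectopicFzd1 and 18.5 CPM in control. The mean log2 difference, Fzd1-lacZ minus control, was -0.34 (SE 0.09), and with DOX ectopicFzd1 minus control was 0.13 (edgeR, adjusted p = 0.643).

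The balance within each pair of copies does not depend on scaling between libraries. Trim12a made up 24.2% to 46.9% of Trim12a plus Trim12c counts in Fzd1-lacZ. It made up 20.4% to 43.2% in ectopicFzd1 at P0, against 18.1% to 52.0% in control at P0. In control with DOX at P7 it was 21.0% (Wilson 95% interval 15.05 to 28.6), 25.7% (18.4 to 34.6) and 21.1% (15.3 to 28.4). The ectopicFzd1 libraries with DOX at that age read 1 of 106, 0 of 111 and 0 of 112 counts, where a count of 0 allows up to 2.70% and 2.68%. In the 41 libraries with 0 counts of Trim12a the limit was 1.47% to 10%, so those libraries all lay below the Fzd1-lacZ range.

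Trim34a made up a median of 92.3% of Trim34a plus Trim34b counts in Fzd1-lacZ (range 66.7% to 100%). The median was 48.3% in ectopicFzd1 with DOX and 54.5% in control with DOX. At P0 the share was 81.8% to 98.2% in ectopicFzd1 and 72.3% to 97.7% in control, and in control with DOX at P7 it was 75.9% to 85.7%. Single libraries of groups with at most 1 count of Trim12a per library fell in the same range, with 75.0% in ectopicFzd1 P10 replicate 3, 77.8% in control P10 replicate 2 and 72.7% in control DOX P3 replicate 1. Pairs held only 3 to 67 counts per library, and how the 2 copies were told apart by the counting was not tested.

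**Figure D4:**
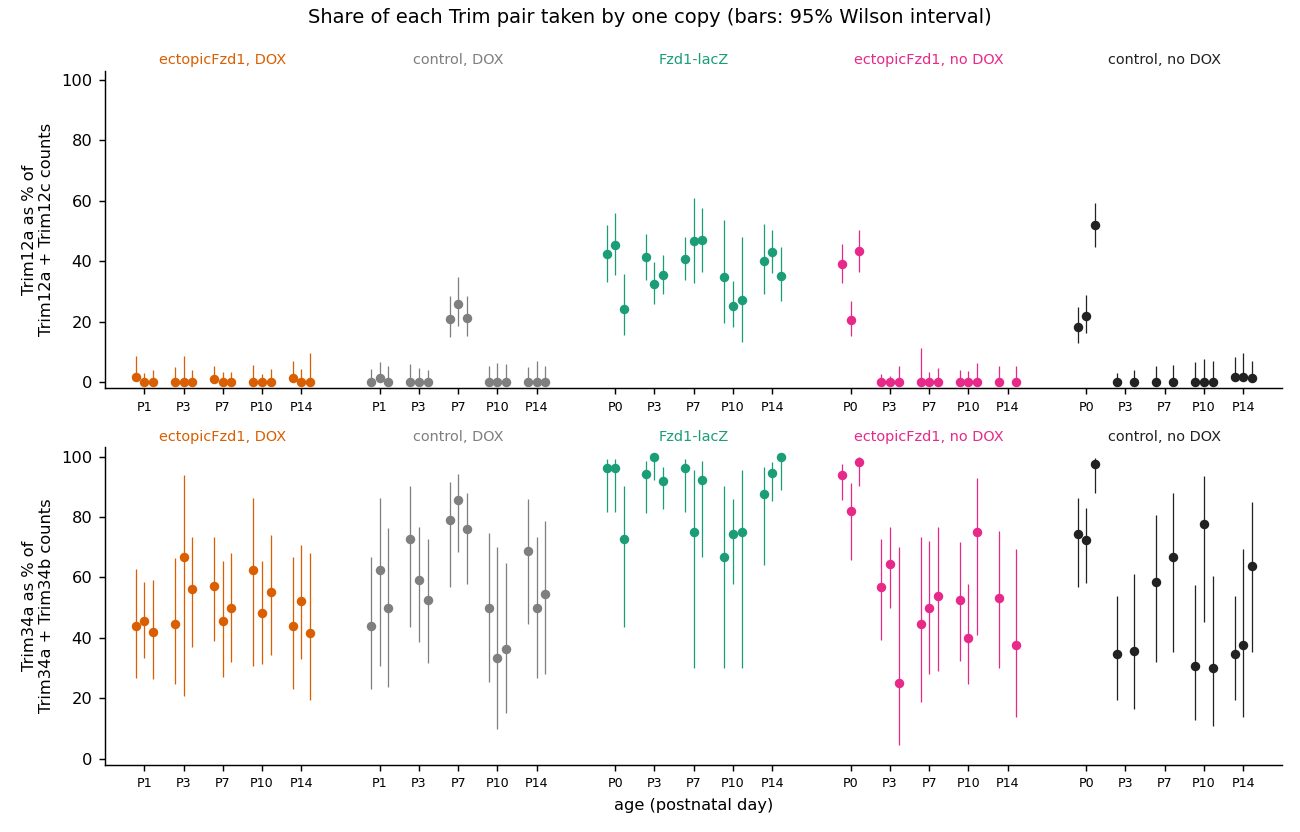
Share of Trim12a in Trim12a plus Trim12c counts (top) and of Trim34a in Trim34a plus Trim34b counts (bottom), in percent, for each of the 72 libraries by age with Wilson 95% bars, in the group order ectopicFzd1 with DOX, control with DOX, Fzd1-lacZ, ectopicFzd1 without DOX and control without DOX. Fzd1-lacZ lies at 24.2% to 46.9% for the first pair, and ectopicFzd1 with DOX lies at 0% to 1.61%.

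The promoters of 4 Trim members hold a short element of the kind that interferon-responsive genes carry, and 100-base windows around it (RefSeq, GRCm38.p6, 5′ to 3′ on the gene's strand) are shown to set Trim12a, Trim5 and Trim34a, whose levels had a Spearman rho of 0.56 to 0.68 with each other over the 72 libraries, beside Trim12c, whose rho with them was -0.40 to -0.24. Capitals mark the match to the interferon element core, which is GAAA, any 2 bases and GAAA again, searched on both strands and here found as its reverse complement. The other motifs searched, TATAAA and CCCNNGGG, cannot fall within its fixed letters.
Trim12a (chr7:104315466-104315565, minus strand): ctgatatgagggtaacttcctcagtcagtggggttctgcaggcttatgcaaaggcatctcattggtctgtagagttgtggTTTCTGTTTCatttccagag
Trim5 (chr7:104288136-104288235, minus strand): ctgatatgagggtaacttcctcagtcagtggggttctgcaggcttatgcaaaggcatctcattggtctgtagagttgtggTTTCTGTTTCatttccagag
Trim12c (chr7:104353359-104353458, minus strand): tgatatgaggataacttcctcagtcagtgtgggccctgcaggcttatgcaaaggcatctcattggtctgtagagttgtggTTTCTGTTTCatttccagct
Trim34a (chr7:104244387-104244486, plus strand): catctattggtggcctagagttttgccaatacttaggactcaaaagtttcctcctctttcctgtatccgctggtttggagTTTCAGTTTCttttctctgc
The Trim12a and Trim5 windows are identical over all 100 bases, and Trim12c matches Trim12a at 94 of 99 aligned bases. The element occurs in 3.44% of 32851 promoters of the same length. Trim12c holds it too and did not follow Trim12a. TATAAA was found in 0 of the 6 members' promoters searched and in 13.6% of all, and CCCNNGGG in that of Myo7a alone and in 13.7% of all. These matches describe letters in a window and say nothing of binding.

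The interferon response list holds 14 genes. Between Fzd1-lacZ and control, 1 passed (Ifit1, an interferon-induced RNA-binding protein, log2 difference 0.61), 3 had an unadjusted p under 0.05 and the median was -0.01. With DOX, 1 passed between ectopicFzd1 and control (Ifi44, log2 difference 0.72, SE 0.14, edgeR, adjusted p = 0.00283), 6 had an unadjusted p under 0.05 and the median was 0.26. Between ectopicFzd1 and control without DOX 3 were higher, Ifi44 by 0.67, Oas1a by 0.81 and Isg15 by 0.84, and 6 had an unadjusted p under 0.05. With DOX against without, 0 passed in either tTA line, and edgeR gave 1 in ectopicFzd1 and 3 in control at an unadjusted p under 0.05. Of 10 other TRIM genes of chromosome 7 tested, 0 passed between lines, with or without DOX (at an unadjusted p under 0.05, 2 between Fzd1-lacZ and control, 2 between ectopicFzd1 and control without DOX and 1 with DOX), and Trim3 alone rose with DOX in ectopicFzd1 (0.25, edgeR, adjusted p = 0.0474).

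Genes around the members also differed between Fzd1-lacZ and control. Within 10 Mb of Omp, with receptor genes left out, 19 of 204 tested genes passed (9.31%), and without the 8 members 11 of 196 did (5.61%). The share was 5.48% of 73 genes within 10 Mb of Fzd1, 2.88% of 1459 genes on the rest of chromosome 7 and 2.42% of 20998 genes over all chromosomes, given as a description with no test. With DOX, Omp was the 1 gene of 204 in the window that passed between ectopicFzd1 and control. Of the tested genes that flank the members, Pak1 beside Myo7a had a log2 difference of -0.09 (SE 0.07) between Fzd1-lacZ and control. On either side of the Trim genes, Trim6 had -0.13 (SE 0.39) and Trim30b 1.10 (SE 0.47), and none of these 3 passed.

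**Figure D5:**
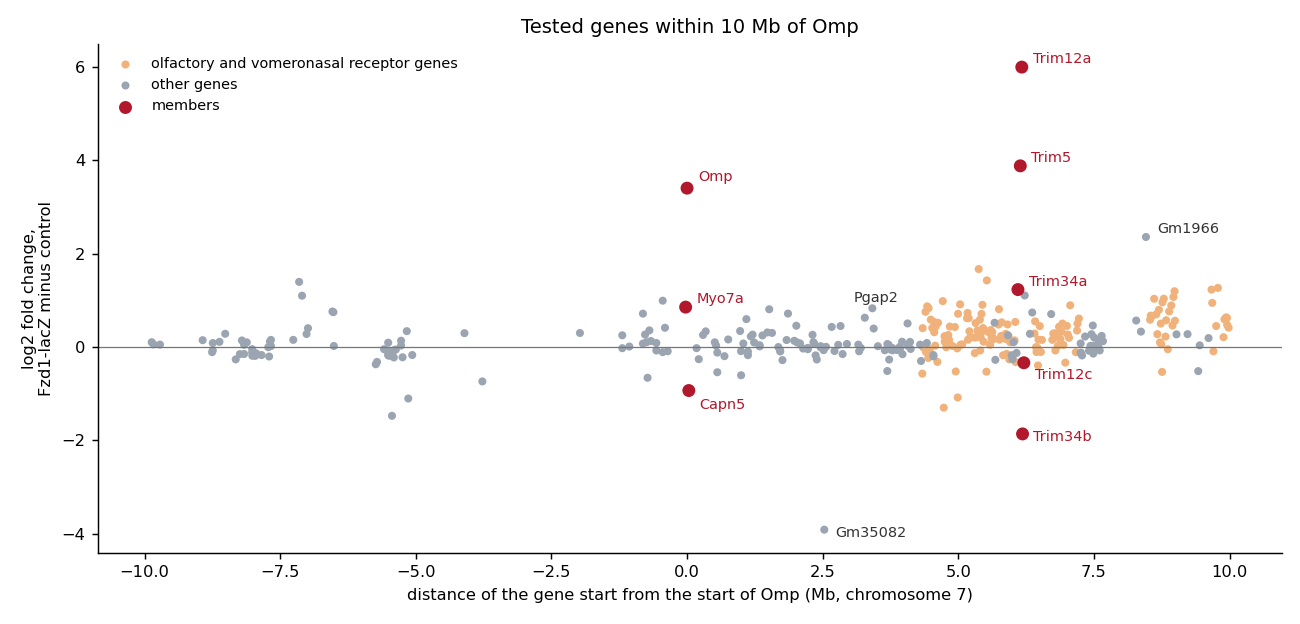
Log2 difference, Fzd1-lacZ minus control without DOX, of tested genes against their distance from the start of Omp in Mb; members and the named neighbours are labelled. The Trim members sit 6.10 Mb from Omp, Trim34a, Trim5 and Trim12a above 0 and Trim12c and Trim34b below it.

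Pgap2 and Gm1966 shared the Trim12a pattern across groups, and Omp did not. Pgap2 (chr7:102210208-102238567), a factor that matures lipid anchors of surface proteins, averaged 22.6 to 34.0 CPM in the Fzd1-lacZ groups, ectopicFzd1 P0, control P0 and control DOX P7, and 14.99 to 20.9 CPM in all other groups, with single libraries overlapping. Gm1966 (chr7:106596743-106604035) averaged 2.71 to 5.17 CPM in those same groups and 0 to 1.07 CPM elsewhere. Omp was high in these groups as well, but also in control at P14, with and without DOX, and in control with DOX at P1 and P10, where Trim12a had at most 1 count. Gm35082 (chr7:100675088-100677760), between Omp and the Trim genes, went the other way in Fzd1-lacZ, with 0 to 1 counts at P3 and P7, 0 at P14 and 1 to 45 at P10. Strain differences in this stretch of chromosome 7 were not tested and cannot be told apart from genotype in Fzd1-lacZ.

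Likeness across the 72 libraries was ranked by Spearman correlation of log2 CPM over 21149 genes, as a description. The points share library depth, age and line, so none of these values is a test. Omp was most like Olfr522, an odorant receptor gene (rho 0.78), Gm10432 (0.78) and S100a5, a calcium-binding protein of olfactory neurons (0.78). Capn5 was most like Ppip5k1 (0.71) and Man2a2 (0.70), and not like Omp (-0.33). Myo7a was most like the long noncoding RNA Miat (0.70) and Gm1966 (0.69), with Trim12a at 0.67. Trim12a was most like Gm1966 (0.79), and both Trim34a and Trim5 had Trim12a as their nearest gene (0.68 each). Trim34b was most like Catspere2 (0.57), and Trim12c was most like Orc5, a subunit of the origin recognition complex (0.59).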

How the data were processed

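Per the labels' protocols, RNA was taken from olfactory epithelium with TRIzol and sequenced from TruSeq Stranded Total RNA libraries after Ribo-Zero Gold depletion. Per the submitters' processing notes, bcl2fastq 2.18, STAR 2.6.1c and RSEM were used with mm10. The authors deposited a table of gene counts and a table of TPM values, and 4 summary rows of the count table that name no gene were left out. Counts were tested with edgeR 4.0.16 (quasi-likelihood, TMM, 1 mean per group, Benjamini-Hochberg over 22144 genes, threshold 0.05). CPM values are TMM-scaled. Alternatives used DESeq2 1.42.0 and limma 3.58.1 on log2(TPM + 1) and log2(TPM + 0.1). The tests were tested on simulated data. Single Omp values were tested by exact permutation within ages. Intervals are 95% and, like the floor of 3 counts, cover counting error only. Depth ran from 1314528 to 8788000 gene counts per library. The members and lists were chosen with earlier results of these data known, and the genes named are the members, list genes that passed and genes within 10 Mb of Omp that passed. Replicates were numbered in accession order. Coordinates are mm10 (GENCODE M21).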

Additional observations from a re-analysis of the deposited data

Results flagged for a closer look

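With DOX, the difference between ectopicFzd1 and control varied among the 5 ages for 3 of the 8 genes, by an F test of the difference itself in edgeR, with adjusted p over all genes. For Omp the adjusted p was 2.57e-08, with log2 differences between -4.66 at P10 and -0.09 at P3. For Capn5 it was 0.00505, with differences between -0.39 at P3 and 0.72 at P1. For Myo7a it was 0.0384, with differences between -0.97 at P7 and 0.28 at P1. The 5 Trim genes did not pass, with adjusted p between 0.214 for Trim12a and 0.686 for Trim5, though Trim12a at 0 in most of these groups leaves the test little to work with.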

How the results depend on the processing

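No paired analysis was possible because replicates were numbered in accession order and the groups compared share fewer than 2 animal numbers in the labels. Across the other alternatives, the number of members passing stayed within 1.5 times in 61 settings and 148 fits that left out 1 library. The exceptions follow. Fitted on only the groups compared, 3 members passed between ectopicFzd1 and control with DOX, and 2 passed between control with DOX and without, 2 between ectopicFzd1 with DOX and without, 1 between P14 and P0 in Fzd1-lacZ and 2 between P14 and P1 in control with DOX. Between ectopicFzd1 with DOX and without, 2 passed with DESeq2 size factors, 2 with no filter on low counts, 2 without the 2 libraries whose Fzd1 goes against their labels and 2 without libraries over 25% in repeat genes, and 3 passed with limma on log2(TPM + 1) and 3 on log2(TPM + 0.1). Leaving out 1 library gave 1 to 2. Between P14 and P0 in Fzd1-lacZ, 1 passed with no filter and 1 without the repeat-rich libraries, and leaving out 1 library gave 1 to 2. In ectopicFzd1, leaving out 1 library gave 2 to 7. Between P14 and P1 in control with DOX, 2 passed without the repeat-rich libraries and 3 with limma on either TPM scale. In ectopicFzd1 with DOX, 2 passed without the repeat-rich libraries, 5 with limma on log2(TPM + 1) and 3 on log2(TPM + 0.1), and leaving out 1 library gave 1 to 2. Trim12c reversed there, to -0.71 and -0.91 on those TPM scales. With the ID series as a covariate, 1 member passed between ectopicFzd1 and control over P0 to P10, against 3 without it. Omp relative to the markers in ectopicFzd1 with DOX against without was -0.070 on log2(TPM + 1), and between -0.082 and 0.19 with 1 library left out. The cause of these shifts was not tested.

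The number of all genes passing moved more. Fzd1-lacZ minus control gave 630 genes, against 5431 with limma on log2(TPM + 1), 6728 on log2(TPM + 0.1), 3198 without the repeat-rich libraries and 394 to 1997 with 1 library left out. With DOX, ectopicFzd1 minus control gave 183, against 41, 36 and 432 for the first 3 of these and 385 on only the groups compared. Control with DOX minus without gave 192, against 14 to 1377 over the alternatives. With DOX minus without in ectopicFzd1 gave 1661, against 1145 to 3319. P14 minus P0 in Fzd1-lacZ gave 4986, against 2689 with 1 library left out, 8220 without the repeat-rich libraries and 7769 with limma on log2(TPM + 1), and in ectopicFzd1 7081, against 3722 with 1 library left out. P14 minus P1 in ectopicFzd1 with DOX gave 7610, against up to 13400 with limma. The ID series as a covariate gave 1142 genes between ectopicFzd1 and control over P0 to P10, against 2645. Low counts of Trim12a, Trim5 and Trim34b limit what can be seen of them.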
